A study of Homo sapiens with 4 samples.

Results

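TBC1D22A is a protein-coding gene on the plus strand of the long arm of chromosome 22, and its RNA was examined here for binding by LARP4, a La-related RNA-binding protein. The gene's intervals were taken as every plus-strand interval that overlapped chromosome 22, 47158500 to 47571400 (hg19), a span of 412.9 kb, in each of the 3 deposited lists. The gene was chosen from measured values, because it carried many regions of enrichment over input, so its number of regions and its folds are given as a description and were not tested. The rule found 311 of 171755 clusters in replicate 1, 279 of 191899 clusters in replicate 2 and 52 of 7153 regions in the authors' series-wide list. The name belongs to the span as supplied. No exon, intron or untranslated region was assigned, since no hg19 annotation was used here.

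TBC1D22A belongs to the family of proteins with a TBC domain, most of which stimulate the hydrolysis of GTP by Rab GTPases and so switch off these regulators of membrane traffic. Its product has been found in complexes with the Golgi protein ACBD3. LARP4 carries a La module, binds poly(A) RNA and poly(A)-binding protein, and is known for protecting the poly(A) tails of messenger RNAs. The transcript of a gene of this length is mostly intron before splicing, and the spliced messenger RNA is a small part of the span.

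The data came from HEK293 cells, an established human embryonic kidney line with no genetic change or drug treatment named in the labels, crosslinked with 400 mJ/cm2 of ultraviolet light at 254 nm. In enhanced crosslinking and immunoprecipitation (eCLIP), protein and RNA are joined by the light, the protein is recovered with an antibody, and the fragments of RNA that come with it are sequenced. LARP4 eCLIP and size-matched input, in which the antibody step is left out, had 2 replicates each, called biological replicates in the labels. The inputs enter these values as the denominator only. A cluster is an interval of reads called in 1 replicate, with a log2 fold over input and a −log10 p of enrichment. Clusters were called enriched at a log2 fold of at least 3, which is 8-fold, with a −log10 p of at least 3. The lists hold no reads, so the depth behind a cluster is not given.

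LARP4 clusters on TBC1D22A had higher folds over input than the clusters of the whole lists. Replicate 1 had a median log2 fold of 2.38 and replicate 2 one of 2.33, against 1.28 and 1.30 over all clusters. The middle ranges were 1.53 to 3.11 and 1.59 to 3.27. In replicate 1, 69 of the gene's 311 clusters were enriched (22.2%, Wilson 95% interval 17.9 to 27.1), beside 5.01% of the whole list. In replicate 2, 71 of 279 were enriched (25.4%, 20.7 to 30.9), beside 5.50% of the whole list. Because the same enrichment led to the choice of the gene, nothing is read from these shares. On the rest of chromosome 22 the enriched share was 6.31% and 7.03%. Intervals of shares cover counting error only and treat clusters as independent, which neighbours on 1 transcript are not.

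Together the clusters covered 16.7 kb of the span in replicate 1 and 16.2 kb in replicate 2, with a median width of 52 bases in both. The 52 regions covered 4615 bases, or 1.12% of the span. They made up 0.727% of the series-wide list and 52 of the 237 regions on the plus strand of chromosome 22 (21.9%). The authors' log2 fold of the regions ran from 3.01 to 5.57 with a median of 3.97. Over the whole series-wide list the median was 3.65 and the highest value 7.21.

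All 52 regions lay on the 3′ side of the midpoint of the gene, and 42 of them (80.8%) in the last 20% of the span. That last 20% also held 46.0% of all the gene's clusters in replicate 1 and 48.7% in replicate 2. Of the clusters that were not enriched it held 36.8% and 38.5%. On the 5′ side of the midpoint, none of 60 clusters in replicate 1 and none of 46 in replicate 2 was enriched. The limit on p is enough to give these counts. In replicate 2 the limit on fold also is, since the highest log2 fold on the 5′ side was 2.33. In replicate 1 it was 3.28. At any fold, the highest −log10 p there was 2.04 in replicate 1 and 1.55 in replicate 2. On the 3′ side 90 and 102 clusters had a −log10 p of at least 3. Counts of 0 here allow shares of up to 5.0% and 6.52%, which lie close to the shares of the whole lists, so a difference from those lists was not detectable at this number of clusters. Clusters on the 5′ side had median log2 folds of 1.11 (replicate 1) and 1.01 (replicate 2). On the 3′ side it was 2.57 over 251 clusters and 2.63 over 233. The clusters that were not enriched also had higher folds there, with medians of 2.23 over 182 clusters and 2.18 over 162. When position along the RNA is scaled so that the span starts at 0 and finishes at 1, regions had a mean position of 0.877. Clusters that were not enriched had mean positions of 0.652 and 0.672.

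**Figure D1:**
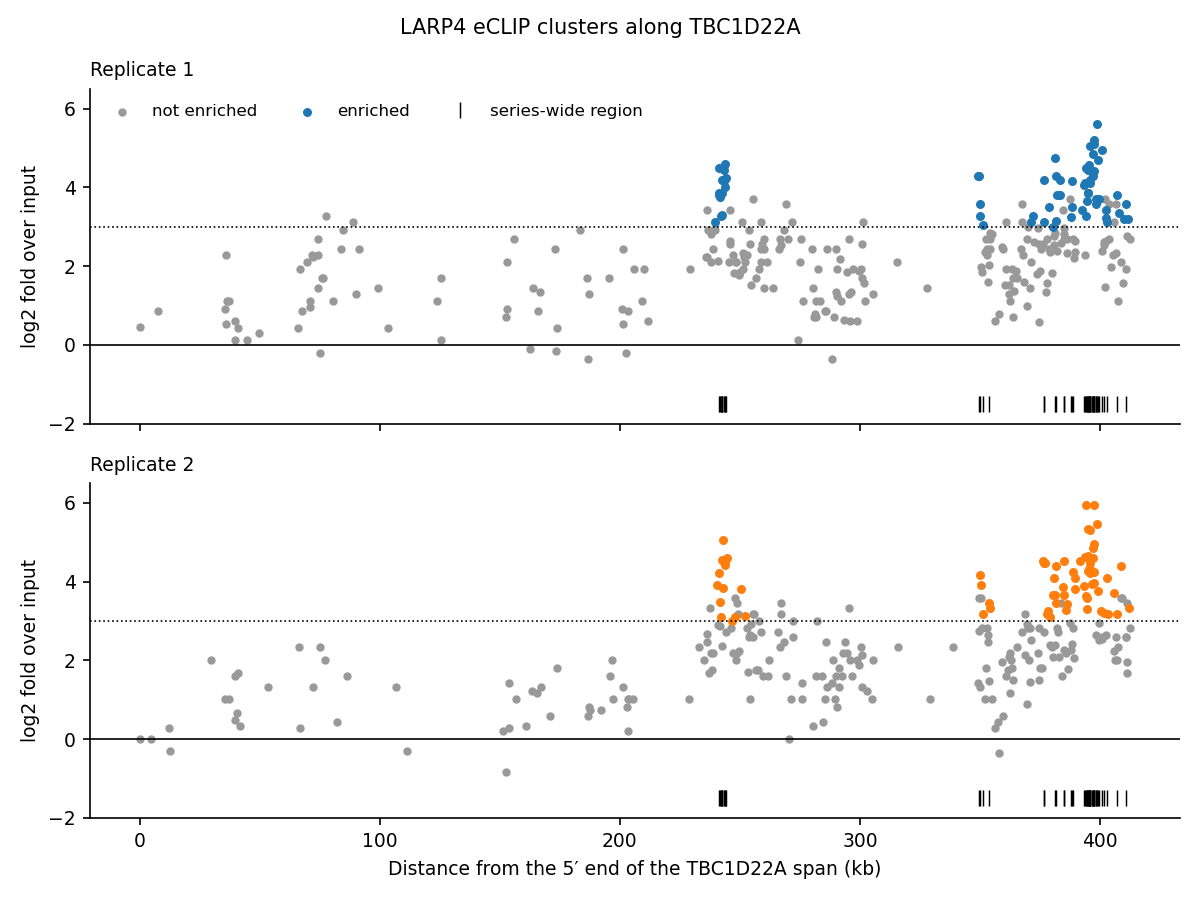
The log2 fold over input of each cluster (vertical axis) is plotted against its distance in kb from the 5′ end of the TBC1D22A span, with replicate 1 above and replicate 2 below. Coloured points are enriched clusters (69 and 71), grey points the others, black ticks the 52 series-wide regions, and the dotted line a log2 fold of 3. Enriched clusters and regions are absent from the first 239 kb in both replicates and gather in the same places after it.

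The place where enrichment began was nearly the same in both replicates. The first enriched cluster started 239.7 kb into the span in replicate 1 and 240.7 kb into it in replicate 2. Neither of these clusters overlapped a region or a cluster of the other replicate. The first region, which started at 241.1 kb, had an enriched cluster in both. Ahead of the first enriched cluster lay 72 clusters with a median log2 fold of 1.38 in replicate 1 and 56 with a median of 1.01 in replicate 2. Single clusters there reached log2 folds of 3.43 and 3.33 without a −log10 p of 3. Clusters were also sparser there: the part of the span before the first region held 3.15 clusters per 10 kb in replicate 1 and 2.41 in replicate 2.

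Windows of 10 kb show how the number and fold of clusters varied along the gene. The window from 240 to 250 kb held 25 clusters in each replicate, with median log2 folds of 3.43 and 3.18. The window before it held 10 and 9, at 2.87 and 2.18. The window after it held 17 and 16, at 2.34 and 2.68. By 280 to 290 kb the medians were 0.85 over 13 clusters and 1.42 over 11. Between 310 and 340 kb there were 2 clusters in replicate 1 and 3 in replicate 2. The highest medians with at least 10 clusters were those from 390 to 400 kb, at 4.20 and 4.33, over 27 clusters in each replicate, of which 25 and 24 were enriched.

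**Figure D2:**
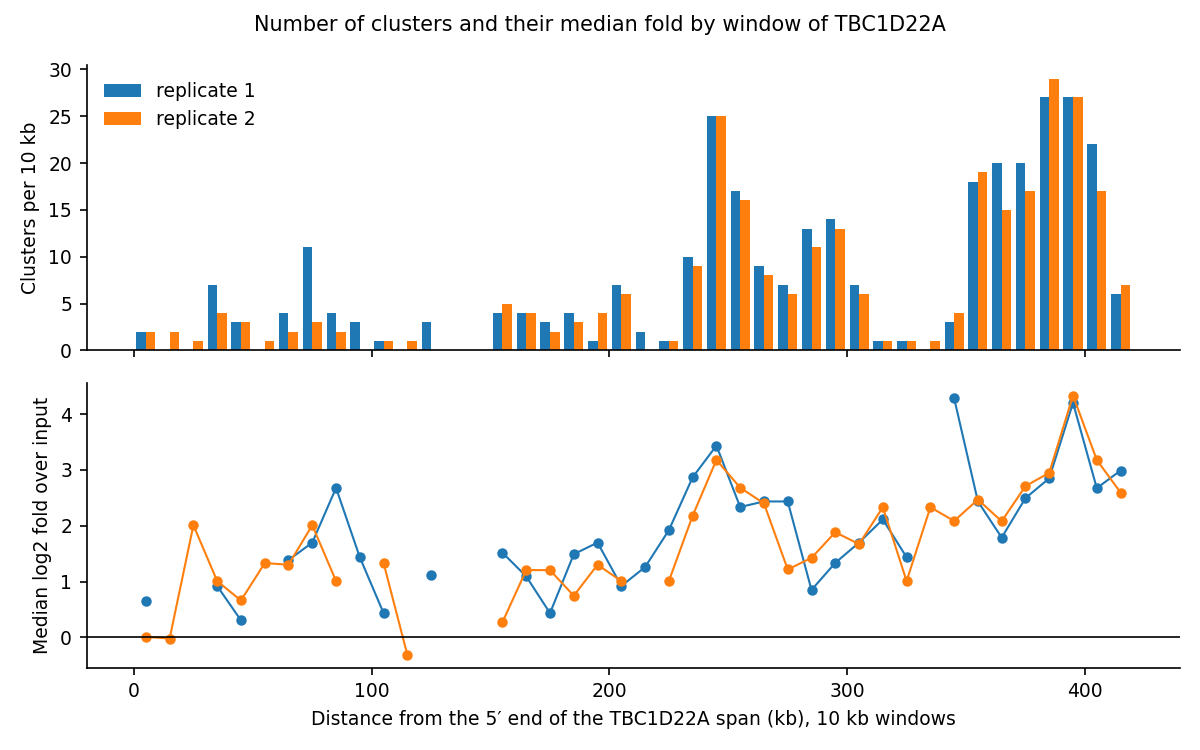
The upper panel gives the number of clusters and the lower panel their median log2 fold over input in each 10 kb window of TBC1D22A, by distance in kb from the 5′ end of the span, for replicate 1 (blue) and replicate 2 (orange). The windows from 240 to 250 kb and 390 to 400 kb hold 25 and 27 clusters in each replicate, many windows on the 5′ side hold fewer than 5 clusters, and the last window holds only 2.9 kb of the span.

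The 52 regions fell into 3 stretches when a gap of more than 5 kb was taken to end one. Stretch 1, chromosome 22, 47399642 to 47402610, held 10 regions in 2.97 kb. Stretch 2, 47508169 to 47512466, held 4 regions in 4.30 kb. Stretch 3, 47535111 to 47569554, held 38 regions in 34.4 kb. No region lay in the 105.6 kb between the first pair of stretches or in the 22.6 kb between the second pair. Clusters did occur there. The wider gap held 80 clusters in replicate 1 and 76 in replicate 2 with median log2 folds of 2.02 and 2.15, and 1 and 5 of them were enriched.

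The bounds of the 3 stretches were set by regions that had all passed the enrichment thresholds. Nothing is therefore read from the enriched shares inside them, which stand beside 5.01% and 5.50% of the whole lists. In stretch 1, all 13 replicate 1 clusters were enriched, with log2 folds from 3.28 to 4.60. So were 9 of 12 in replicate 2, where values ran from 2.37 to 5.05. Its first region, 47399642 to 47399989, had log2 folds of 3.86 in replicate 1 and 4.22 in replicate 2. At 348 bases it was the widest of all 7153 regions in the series-wide list, and at 27.1 its −log10 p in that list was the highest of the gene's regions. The next regions, at 47400356 to 47400461 and 47400563 to 47400710, had 3.77 and 3.49, and 3.28 and 3.11.

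Touching regions at 47400880 to 47400988 and 47400989 to 47401064 had replicate 1 folds of 3.31 and 4.20 on the log2 scale and the same replicate 2 cluster, at 4.54, behind both. A region of 285 bases at 47401826 to 47402110 had log2 folds of 4.43 and 4.49. The region at 47402176 to 47402222 had 4.02 and 4.44. At 7 of the 10 regions the folds of both replicates differed by less than 1 on the log2 scale. The others were the region at 47400880 to 47400988 given above, that at 47401105 to 47401147, with 3.87 against 2.37, and the last region of the stretch, 47402550 to 47402610, with 4.24 against 2.71. Over the 10 regions the mean log2 fold was 3.90 ± 0.08 (SD, n = 2 replicates).

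Stretch 2 had lower folds than the other stretches and a median −log10 p of 3.52, against 11.3 in stretch 1 and 6.74 in stretch 3. Its regions had authors' log2 folds from 3.08 to 3.65 and −log10 p values from 3.15 to 4.50. At 47508169 to 47508223 replicate 1 had a log2 fold of 4.28 and replicate 2 one of 2.75, and at 47508629 to 47508683 they had 3.28 and 4.18. The region at 47509793 to 47509880 had close values, 3.05 and 3.18. The region at 47512393 to 47512466 had 2.02 in replicate 1, the lowest value behind any of the 52 regions, and 3.47 in replicate 2. The mean over the 4 regions was 3.28 ± 0.17 (SD, n = 2 replicates). In the window from 340 to 350 kb, which takes in the 5′ end of stretch 2 and its first region, all 3 clusters of replicate 1 were enriched and none of the 4 of replicate 2 was.

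Stretch 3 held 73.1% of the regions and every region of the gene with an authors' log2 fold of at least 5. In it, 46 of 87 clusters were enriched in replicate 1 and 49 of 81 in replicate 2. The median log2 fold of all clusters in it was 3.36 in replicate 1 and 3.47 in replicate 2, and no cluster lay below input. The mean over its 38 regions was 4.0 ± 0.01 (SD, n = 2 replicates), with single values from 2.62 to 5.60 in replicate 1 and from 2.27 to 5.95 in replicate 2. Its last region, 47569481 to 47569554, ended 1.85 kb before the end of the span and had log2 folds of 3.57 and 2.59.

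The densest part of the gene lay inside stretch 3. Between 47551992 and 47557958, 24 regions followed each other over 5.97 kb with no gap above 1 kb, and they had a mean log2 fold of 4.30 ± 0.02 (SD, n = 2 replicates). An enriched cluster of each replicate lay behind 21 of the 24 (87.5%), beside 72.5% of all regions in the series-wide list. Replicate 1 was enriched at all 24 of them. In replicate 2 the touching regions at 47556914 to 47556942 and 47556943 to 47556973 rested on 1 cluster with a log2 fold of 2.63, against 3.57 and 3.70 in replicate 1. The remaining one, 47557902 to 47557958, had 3.70 and 2.51. These lower values sat at the 3′ end of the run, around the highest region of the gene.

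**Figure D3:**
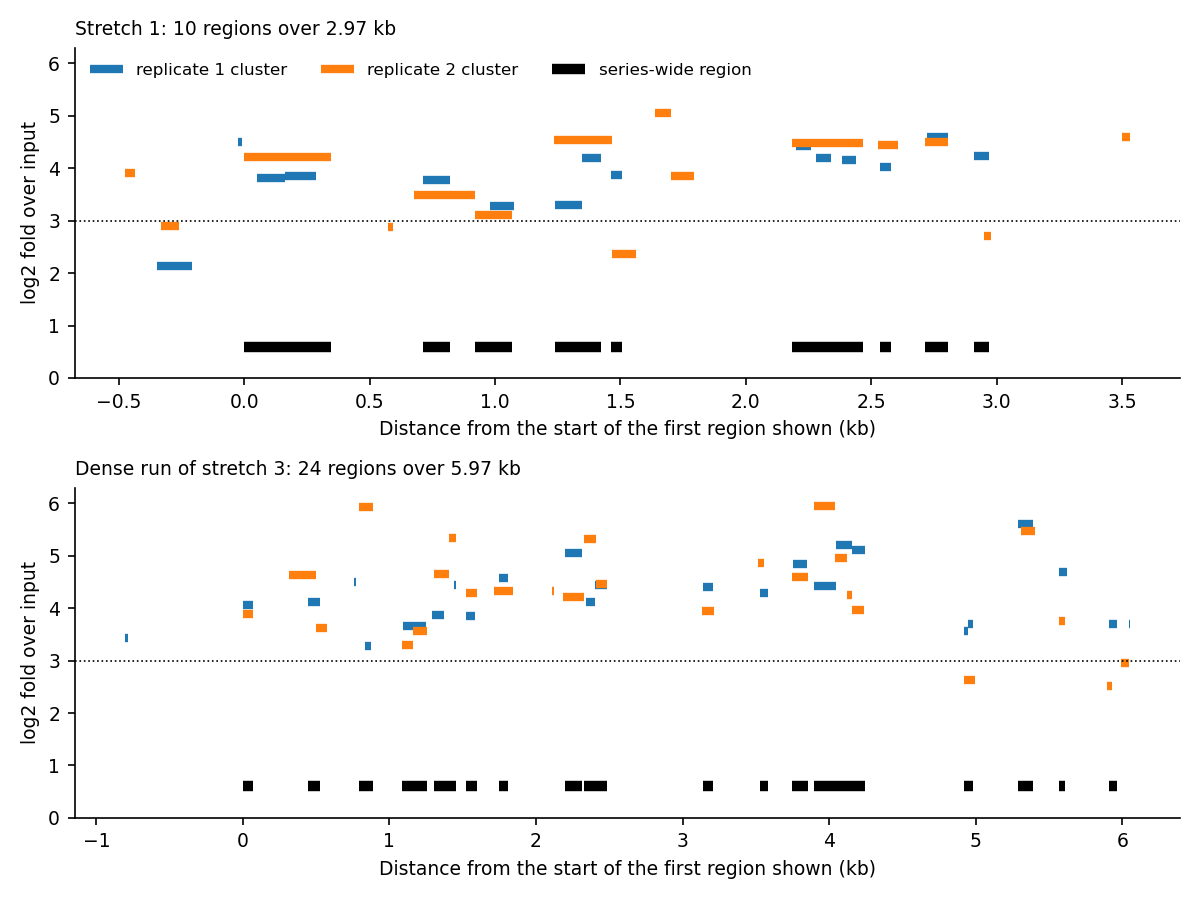
Clusters of replicate 1 (blue bars) and replicate 2 (orange bars) are drawn at their log2 fold over input and to scale along the RNA, in kb from the start of the first region shown, with series-wide regions as black bars near the base of each panel and a dotted line at a log2 fold of 3. Stretch 1 (above) has 10 regions over 2.97 kb and the dense run of stretch 3 (below) has 24 over 5.97 kb, and most bars of both replicates lie above the dotted line.

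Ranked by the smaller of their replicate values, the leading 10 regions were at least 19.5-fold above input in each replicate. Of these, 8 lay in stretch 3, all in its dense run, and 2 in stretch 1. The highest was 47557284 to 47557381, 98 bases wide, with log2 folds of 5.60 in replicate 1 and 5.47 in replicate 2 (5.54 ± 0.10, SD, n = 2). Its lower value is a fold of 44.3. Next came 47556038 to 47556146 with 5.20 and 4.96, and 47555737 to 47555848 with 4.84 and 4.59. In stretch 1 the region at 47402355 to 47402446 had 4.60 and 4.50.

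Between the last pair named in stretch 3 lay 47555888 to 47556037, with 4.42 in replicate 1 and 5.95 in replicate 2, the highest single value of the gene's regions. The regions at 47553398 to 47553446, 47554401 to 47554478, 47553737 to 47553801 and 47555521 to 47555578 had replicate 1 values of 4.43, 4.43, 4.57 and 4.28, and replicate 2 values of 5.33, 4.47, 4.33 and 4.87. The lower value was the same, 4.43, in 3 of the 10, so these have no order among them. The region ranked next had a lower value of 4.21, against 4.28 for the last of the 10. Over the 52 regions the median SD between replicates was 0.57, so the order of neighbours is loose. The leading 3 regions had smaller SDs, of 0.10, 0.17 and 0.17, and their replicate values did not overlap. No order was tested.

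Both replicates gave the same mean over the regions but differed at single ones. Over the 52 regions the replicate means were 3.92 and 3.93 on the log2 scale, or 3.93 ± 0.0058 (SD, n = 2 replicates). Replicate 1 was higher at 26 regions and replicate 2 at 26. The replicates lay within 1 log2 unit of each other at 35 regions (67.3%), against 75.8% of all regions in the series-wide list. The SD exceeded 1 at 10 regions. The widest difference was at 47552787 to 47552879 in the dense run, with 3.28 in replicate 1 and 5.94 in replicate 2. At 47559284 to 47559437 the order was the other way, with 4.95 and 2.55. Pearson's r between the replicates was 0.27 over the 52 regions, with a Spearman's rho of 0.33, as a description of intervals that share a transcript and 2 libraries and were already selected on high folds.

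The overlapping cluster of replicate 1 was enriched at 47 of the 52 regions, that of replicate 2 at 42, and both at 37. At 10 regions only replicate 1 was enriched and at 5 only replicate 2. Over all 7153 regions of the series-wide list, replicate 1 was enriched at 5938 and replicate 2 at 6403. Only replicate 1 was enriched at 750 of them and only replicate 2 at 1215, so the order was the other way there. The difference was not tested. The share enriched in both, 71.2%, stood beside 72.5% over the whole series-wide list. These 52 regions rested on 51 distinct clusters of replicate 1 and 50 of replicate 2. Each had the edges of a cluster of one replicate or the other, 29 of replicate 1 and 23 of replicate 2, as every region of the whole list did. There were 7 places where one region touched the next.

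Both replicates were also compared cluster by cluster, without the series-wide list. In replicate 1, 128 of 311 (41.2%) overlapped a replicate 2 cluster, against 44.8% of the whole list. Of these 128, 39 (30.5%) were enriched in each replicate and 62 in neither, while 12 were enriched only in replicate 1 and 15 only in replicate 2. Over the whole lists, 6.51% of overlapping clusters were enriched in both. On the 5′ side of the midpoint 10 of 60 replicate 1 clusters overlapped one of replicate 2, and on the 3′ side 118 of 251 did. The difference was not tested, since clusters of 1 gene are not replicates. The 128 pairs had a Pearson's r of 0.69 and a Spearman's rho of 0.67. On the log2 scale 1 value had an SD of 0.72, against 0.67 over the whole lists.

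**Figure D4:**
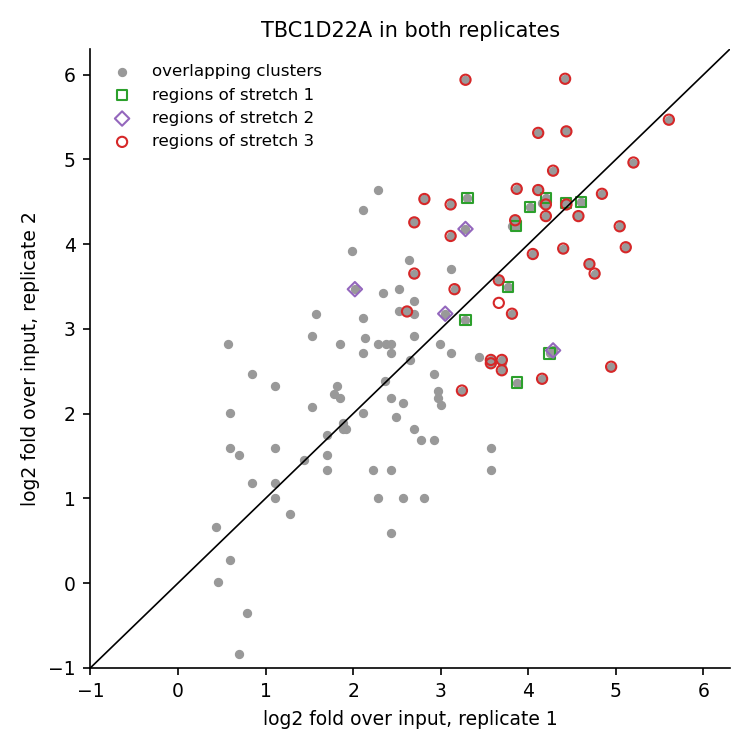
Each grey point is 1 of the 128 overlapping TBC1D22A clusters, with its log2 fold over input in replicate 1 (horizontal) and replicate 2 (vertical), and open symbols mark the 52 regions by stretch (green squares 1, purple diamonds 2, red circles 3). The line marks equal values. Regions scatter on both sides of it, with 26 higher in each replicate.

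Some enriched clusters of the gene lay outside the regions. Of the enriched clusters, 49 of 69 in replicate 1 and 43 of 71 in replicate 2 overlapped a region. The other 20 and 28 lay outside, of which 18 and 20 had no overlapping cluster in the other replicate. These are 26.1% and 28.2% of the gene's enriched clusters, beside 12.7% and 15.1% over the whole lists, and the difference was not tested. None of the 48 was matched by an enriched cluster of the other replicate. The highest was a replicate 2 cluster of 65 bases inside stretch 1, at 47401280 to 47401344, with a log2 fold of 5.05 and no partner in replicate 1. In replicate 1 the highest value outside the regions was 4.51. The share of enriched clusters that overlap a region was not counted over the whole lists, so nothing is read from the gene's counts. Those lists held 8613 (replicate 1) and 10551 (replicate 2) enriched clusters. At 5938 and 6403 of all regions the cluster with the longest overlap was enriched.

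Clusters below input were few. They numbered 6 of 311 in replicate 1 (1.93%, Wilson 95% interval 0.887 to 4.14) and 4 of 279 in replicate 2 (1.43%, 0.559 to 3.63). Over the whole lists 11.6% and 11.2% of clusters lay below input. The lowest log2 fold on the gene was −0.84, in replicate 2, 152.6 kb into the span, where the overlapping replicate 1 cluster had 0.70. Only 2 of these 10 clusters lay more than 210 kb into the span. The only other one with an overlapping cluster in the other replicate was 47516278 to 47516340, at −0.35 in replicate 2 and 0.79 in replicate 1. The rest had no such partner and so could not be below input in both replicates.

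The signal was confined to 1 strand in these lists. No minus-strand cluster overlapped the span in replicate 1 or replicate 2, beside 311 and 279 on the plus strand. Counts of 0 in totals of this size allow minus-strand shares of up to 0.965% and 1.08%. On all of chromosome 22, 2950 of 6300 and 3188 of 6697 clusters were on the minus strand. The nearest minus-strand clusters lay 191 and 126 bases before the start of the span, with log2 folds of 1.11 and 1.01, so the count of 0 depends on where the span starts. On the other side the nearest lay 2596 kb beyond its end. RefSeq's table for GRCh38 lists TBC1D22A-DT, a long noncoding RNA on the minus strand, as the neighbour on the 5′ side, and TBC1D22A-AS1, a long noncoding RNA also on the minus strand, within the gene. The same table lists 4 other genes within TBC1D22A, named only by LOC numbers, 2 of them with no strand given in the tables used. Their positions in hg19 were not used here, so the RNA of a plus-strand gene inside the span and that of TBC1D22A cannot be told apart.

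On the plus strand no cluster lay close outside the span. The nearest plus-strand clusters outside lay 83.8 kb before the span in both replicates, with log2 folds of 1.02 and 0.67, and 1400.0 kb and 623 kb beyond it, with 3.11 and 1.59. The nearest regions of the series-wide list were 655 kb before and 1403 kb after the span, with authors' log2 folds of 3.04 and 4.69. Just inside, the first clusters of replicates 1 and 2 began 0.172 and 0.148 kb into the span and stood at log2 folds of 0.46 and 0.0091, near the input level. The last ones ended at 47570922 and 47571113 with log2 folds under 3. Between the last region and the end of the span there were 3 clusters in replicate 1 and 5 in replicate 2, 1 of them enriched in each.

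The p-values of the gene's regions were moderate for this list. The median −log10 p was 6.99, against 13.9 over all 7153 regions, and 19 of the 52 (36.5%) had a −log10 p of at least 10, against 62.8% of all regions. An authors' log2 fold of at least 4 was present at 48.1% of them, against 30.5% of all regions. The upper limit of 400 was reached nowhere on the gene. Many clusters had exactly the same fold: the 311 clusters of replicate 1 took 103 distinct values, to 6 decimals, with 17 clusters at 2.43, and the 279 of replicate 2 took 108, with 17 at 1.01. Repeated values also occurred among the leading regions, as at 4.43 in replicate 1. The lists do not give the number of reads behind these values. Whether the leading folds rest on few input reads was not tested.

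TBC1D22A was set beside the 3 runs of clusters elsewhere that carried the most regions, where a run is a chain of clusters of both replicates on 1 strand with no gap above 5 kb. The gene itself was split into 13 such runs, of which 2 carried regions. The larger, 47507754 to 47571113, held 42 regions in 63.4 kb, or 0.663 per kb. The plus-strand run on chromosome 21, 44074047 to 44115714, held 52 regions in 41.7 kb, or 1.25 per kb. The plus-strand run on chromosome 17, 49230948 to 49249054, had 33, or 1.82 per kb, and the minus-strand run on chromosome 19, 49110193 to 49122434, had 29, or 2.37 per kb. The regions of TBC1D22A were thus spread over a longer stretch of RNA than those of the 3 runs.

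The folds of regions overlapped in range in all 4 places. Nothing is read from this overlap, since every region of the series-wide list had an authors' log2 fold of at least 3. The mean log2 fold was 3.93 ± 0.0058 for TBC1D22A, 4.25 ± 0.09 for the run on chromosome 21, 3.63 ± 0.22 on chromosome 17 and 3.95 ± 0.28 on chromosome 19 (SD, n = 2 replicates). The share of enriched clusters was lower in the larger TBC1D22A run, at 37.8% in replicate 1 and 41.5% in replicate 2, than in the 3 runs, which had 72.9% and 77.1%, 55.0% and 89.5%, and 73.3% and 93.9%. The median −log10 p of regions was 6.99 for the gene, 9.92 on chromosome 21, 47.2 on chromosome 17 and 77.9 on chromosome 19. Region widths had medians of 76.5, 70, 20 and 15 bases in that order. None of the runs had a cluster on the opposite strand either. With 2 replicates and runs picked for their number of regions, these differences were not tested.

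**Figure D5:**
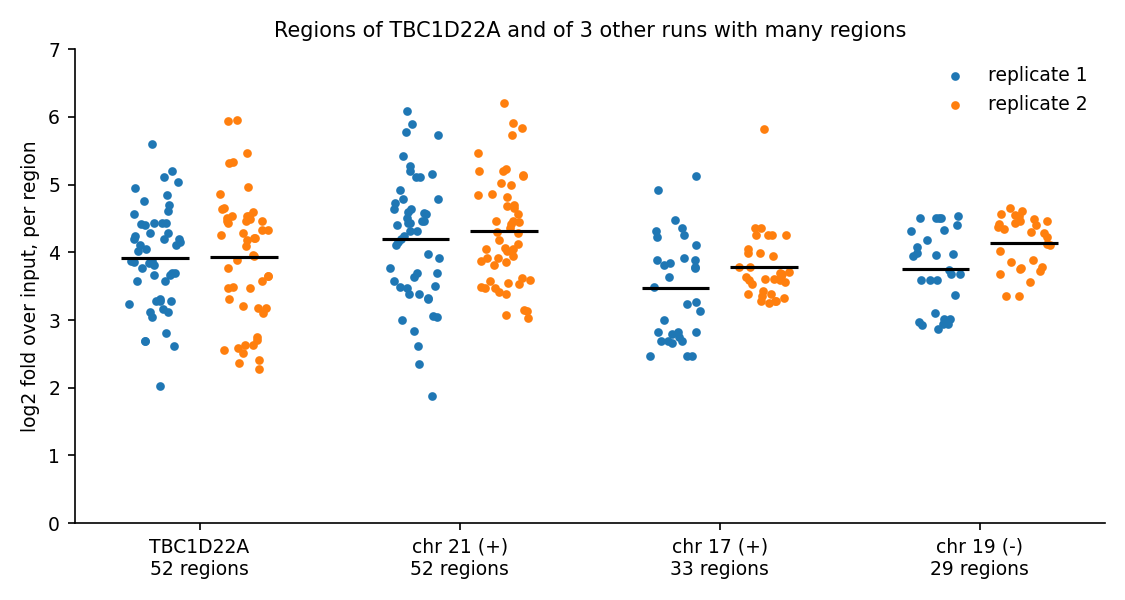
Each point is 1 series-wide region, at the log2 fold over input of the cluster that overlaps it most in replicate 1 (blue) or replicate 2 (orange), for TBC1D22A and the runs on chromosomes 21, 17 and 19, with the strand in brackets. Black bars are means over regions, and horizontal scatter within a column has no meaning. TBC1D22A spans 2.02 to 5.60 in replicate 1 and 2.27 to 5.95 in replicate 2.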

How the data were processed

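Per the labels' protocols, LARP4 eCLIP reads went through an established pipeline for this assay. Per the submitters' processing notes the build was hg19 and the tools included STAR 2.7.6a, SAMtools 1.6, cutadapt 1.14 and UMI-tools 1.0.0. How clusters were called, scaled and matched to an input, and how replicates were merged, is not given in the sources used. The authors deposited, for each interval, a −log10 p of enrichment and a log2 fold over input, in 1 list per replicate and 1 for the series. The files carry no header, so both meanings were inferred from the ranges of the values. All p-values are those the authors deposited, for clusters in the replicate lists and for regions in the series-wide list. They served as a filter and were otherwise only described.

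The gene, its span and the thresholds were chosen with earlier results of these data known. Intervals were assigned by strand and an overlap of at least 1 base, and a region took the cluster with the longest overlap in each replicate. Starts are 1-based, and position uses interval midpoints. Regions named are the leading 10 by the smaller replicate value, the first and last of the gene, and the nearest outside it. Other intervals were picked for naming once their values were known. The planned counts for other TBC-domain genes and for partners and neighbours need an hg19 annotation and were not made. The overlap and run code was tested on simulated data. Scripts ran in Python 3.11.15 with pandas 2.3.3, numpy 2.4.6, matplotlib 3.10.9 and SciPy 1.17.1. Alternatives covered thresholds, overlap, merging, counted unit and each replicate.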

Additional observations from a re-analysis of the deposited data

How the results depend on the processing

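Of 25 alternatives over 7 results, 13 stayed within tolerance and 12 did not. Those for enriched clusters on the opposite strand could only stay, since no minus-strand cluster overlapped the span. The tolerance was 1.5 times for a count, the Wilson interval for a share and 1 SD for the mean fold. The enriched share of the gene's clusters moved with the threshold. With the limit raised to a log2 fold of 4 it was 10.6% in replicate 1 and 12.5% in replicate 2, with the limit lowered to 1 it was 28.9% and 36.6%, with no limit on p it was 28.6% and 32.3%, and with bases counted in place of clusters it was 29.5% and 37.3%. Under the higher limit of 4, 19 replicate 1 clusters were enriched in both replicates and 25 regions were left. The mean log2 fold of regions was 3.95 with the highest overlapping cluster and 3.98 with the authors' series-wide value. Both exceed the main value by more than its SD, which was small because the replicate means nearly coincided. Without one replicate the mean was 3.92 to 3.93, and the share in the last 20% of the gene, taken over the enriched clusters of the other replicate in place of regions, was 78.3% to 78.9%. With bases of regions counted it was 71.5%. The count of regions was 45 with touching regions merged. No paired analysis was possible because the inputs have no list of their own here and no test between groups was made. The number of reads behind each value is not given, which limits every single fold.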
